A study of Homo sapiens with 79 samples.

Results

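CHD7 fRIP-Seq measures the RNA that is recovered with the chromatin remodeler CHD7 from crosslinked K562 cells, a human chronic myelogenous leukemia line. The comparison used 6 of the 79 libraries of the series. They were 3 fRIP libraries of CHD7, chosen by their names, and the 3 libraries of input set 3, taken as the nearest input set. Input is the total RNA of the lysate taken before the pull-down. The series holds 70 fRIP libraries of 24 proteins and 9 input libraries in 3 sets. All cells were K562 fixed with formaldehyde, the fRIP libraries came from a pull-down with 1 antibody to CHD7, and no IgG pull-down entered the comparison. The labels do not say which input set belongs to which protein. The pooled input value that the authors' table gives beside CHD7 lay closest to set 3, with a median absolute log2 difference of 0.0571 over 16245 genes, against 0.162 for set 2 and 0.290 for set 1.

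CHD7 belongs to the chromodomain helicase DNA-binding (CHD) family, whose members use ATP to slide or exchange nucleosomes and carry paired chromodomains that read histone tails. CHD7 sits mainly at enhancers, and loss of 1 copy of its gene causes CHARGE syndrome, a disorder of neural crest derived tissues. In fRIP, light crosslinking keeps RNA and protein together, so that a transcript enriched over input may have touched the protein itself or only a partner.

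Values are FPKM, a fragment count scaled to transcript length and library depth, and every fold change is a log2 difference of log2(FPKM + 1) between the CHD7 fRIP mean and the input mean. A gene was called enriched or depleted when its adjusted p was under 0.05 and the log2 change was over 1 in size. The step that 1 fragment adds to low genes put the depth at 58.7 to 82.3 M fragments for CHD7 and 71.3 to 91.5 M fragments for input. Between CHD7 libraries the log2 levels correlated at 0.959 to 0.977, between input libraries at 0.977 to 0.981 and across the groups at 0.949 to 0.966. The median log2 level was 1.78, 1.88 and 2.10 in CHD7 libraries 1 to 3 and 1.75 to 1.84 in input, so library 3 stood apart. K562 identity genes were present, with summed levels of 1925 to 2752 FPKM in CHD7 and 2496 to 2678 FPKM in input. Of 11 markers of other cell types, 6 were below 1 FPKM in all 6 libraries, among them KRT5 and NEFL at 0, and the summed level of the list was 110.1 to 146.8 FPKM in CHD7 and 137.0 to 160.1 FPKM in input.

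Many of the mRNAs with the largest increases were long and had many exons, and mitochondrially encoded and ribosomal protein mRNAs were among the lowest. The coding windows of the enriched mRNAs shown here hold GAAGAA, a purine-rich hexamer known from exonic splicing enhancers and counted below over all coding sequences. Each is 30 bases of coding sequence that lie in 1 exon, written 5′ to 3′ on the transcript strand, with GAAGAA in capitals where it was found (runs that overlap are joined). The positions are on GRCh37, from the GENCODE v44 annotation lifted to that build: chr5:90106936-90106965 (plus strand) for GPR98, chr15:63986209-63986238 (minus) for HERC1, chr15:41384294-41384323 (minus) for INO80, chr1:39846012-39846041 (plus) for MACF1, chr2:32800324-32800353 (plus) for BIRC6 and chr14:21883983-21884012 (minus) for CHD8.
GPR98: tgggcagttGAAGAAGAAgactttGAAGAA
HERC1: ggggagcaagaagacggtGAAGAAGAAGAA
INO80: GAAGAAGAActcaatctcagcagaGAAGAA
MACF1: gcagaaaattgGAAGAAaattcagGAAGAA
BIRC6: tctacagagaacggtgaagagGAAGAAGAA
CHD8: ataaagatcacagatgatGAAGAAGAAGAA

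Depleted short RNAs, 5 mRNAs and the snoRNA host SNHG5, are shown by their starts, because mRNAs of the translation machinery are known for a 5′ terminal oligopyrimidine (TOP) tract, a C at the start site followed by an unbroken pyrimidine run, which lets growth signals control their translation. The windows run from 10 bases before to 20 bases after the RefSeq start on GRCh38.p14, with the pyrimidine run in capitals where the gene met the rule of at least 5 pyrimidines beginning with C: chr15:69452808-69452837 (plus) for RPLP1, chr19:55385922-55385951 (plus) for RPL28, chr13:45341164-45341193 (minus) for TPT1, chr5:86617931-86617960 (plus) for COX7C and chr6:85678714-85678743 (minus) for SNHG5. RPS28 at chr19:8321486-8321515 (plus) is shown beside them. It did not meet the rule because its annotated start is an A, although a pyrimidine run beginning with C follows directly. Of the 11 named depleted genes with a start window 5 met the rule and 6 did not: RPS28, COX8A, UQCR10, EIF1, HSPB1 and DANCR.
RPLP1: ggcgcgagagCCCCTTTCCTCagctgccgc
RPL28: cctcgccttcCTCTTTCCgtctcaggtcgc
TPT1: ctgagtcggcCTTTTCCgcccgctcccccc
COX7C: tcccatctttCTTTTCagtccttgcgcacc
SNHG5: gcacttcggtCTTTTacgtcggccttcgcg
RPS28: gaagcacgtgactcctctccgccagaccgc

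To ask which RNAs CHD7 enriched or lost relative to input, 25442 genes were tested. CHD7 enriched 378 genes, or 1.49%, and depleted 304, or 1.19%. In 369 of the enriched genes all 3 CHD7 libraries were above all 3 input libraries, and in 296 of the depleted genes all 3 were below. Against all 9 input libraries 218 of the enriched and 164 of the depleted genes were called in the same direction. The median change of all genes was 0.04, and subtracting each library's median moved it to -0.08 and the calls to 223 enriched and 486 depleted, so the balance between the directions depends on the scaling. An exact permutation test of 3 against 3 libraries cannot go below a two-sided p of 0.1. The 369 and 296 genes without overlap have this p by definition, so it is no further test of them. By class, 216 of 13618 mRNA genes were enriched and 179 depleted, 59 and 19 of 5245 lncRNA genes, and 89 and 89 of 5247 pseudogenes. The median change was 0.05 for mRNAs, 0.07 for lncRNAs and 0.02 for pseudogenes, and lncRNAs differed from mRNAs of matched input level by -0.006 ± 0.063 (SD over 3 CHD7 libraries, 5190 lncRNAs).

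The family of the bait was followed first. CHD7 mRNA, which runs over chr8:61591299-61780587 on the plus strand of GRCh37, measured 29.7, 39.5 and 25.9 FPKM in the fRIP and 15.1, 16.6 and 12.4 FPKM in input. All 3 fRIP values were above input, and the gene was called enriched by 1.04 (SE 0.18, adjusted p = 2.50e-05). This lies just past the fold threshold, and after median centring the change was 0.92, or 0.89 against all 9 inputs, both below it. CHD8, a close relative of CHD7 and an autism-associated remodeler, measured 48.1, 53.9 and 38.4 FPKM against 21.0, 19.2 and 16.7 FPKM and rose by 1.25 (SE 0.21, adjusted p = 8.89e-06). CHD2 measured 230.9, 245.4 and 234.9 FPKM against 143.6, 127.7 and 126.9 FPKM, a change of 0.83 without overlap that stayed under the fold threshold. CHD1, CHD9 and CHD1L changed by 0.57, 0.53 and 0.51, also without overlap and under the threshold. CHD4, the motor of the NuRD complex, overlapped input at 361.0, 308.3 and 158.3 FPKM against 273.3, 216.0 and 156.4 FPKM. CHD5 and CHD6 changed by 0.34 and 0.32 with adjusted p of 0.157 and 0.142. CHD3, the other NuRD motor, measured 32.1, 35.5 and 23.0 FPKM against 119.9, 18.7 and 24.1 FPKM. Its first input library was far above the other two, and the change of -0.35 turned to 0.47 without that library. In all, 2 of 10 CHD genes were enriched (1 after centring or against all 9 inputs) and 0 depleted, against 1.49% and 1.19% of all genes, and the median change was 0.52, against 0.04 for all genes. Most 31-base words of the CHD4 and CHD1L transcripts used here (88.2% and 90.6%) also occur in other annotated genes, so their values are uncertain.

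The largest increases among mRNAs with a mean of at least 5 FPKM included many genes for very large proteins, such as GPR98, HERC1 and RYR1. GPR98, which spans chr5:89825161-90460254 and encodes a giant adhesion receptor of the inner ear, measured 265.5, 306.6 and 262.6 FPKM against 45.9, 50.0 and 50.7 FPKM in input, 5.59-fold higher (log2 change 2.48, SE 0.19, adjusted p = 1.39e-15). HERC1 at chr15:63900817-64126147, a giant ubiquitin ligase, measured 401.7, 409.5 and 262.9 FPKM against 75.5, 62.4 and 74.4 FPKM and rose by 2.30 (SE 0.13, adjusted p = 1.44e-20). Library 3 was the lowest of the fRIP libraries for HERC1, yet still far above input. RYR1, the calcium release channel of skeletal muscle, measured 18.2, 26.7 and 18.2 FPKM against 3.76, 3.00 and 2.78 FPKM and rose by 2.38. PKD1, which encodes polycystin-1, measured 148.0, 149.4 and 67.2 FPKM against 20.5, 25.2 and 23.7 FPKM and rose by 2.26. TEP1, a component of vault particles and telomerase, measured 51.7, 50.8 and 40.5 FPKM against 9.89, 9.16 and 8.88 FPKM and rose by 2.23. None of these fRIP values overlapped input, which the choice of these genes required. DNAH8, an axonemal dynein heavy chain, rose by 2.21, and PLXND1, a semaphorin receptor, by 2.13. HERC2, WDFY3, DMPK, KIAA1109 and CPT1B rose by 2.07, 2.02, 2.02, 2.00 and 2.00. NPIPA5 and NPIPA1 rose by 2.45 and 2.34, but 91.7% and 98.4% of their 31-base words occur in other genes of the same duplicated family, and HERC2 shares 30.52% of its words, largely with its pseudogenes. PKD1 also has near-identical pseudogene copies, so its value is uncertain. GPR98, HERC1, KIAA1109 and PLXND1 shared none on the same strand. RP11-317G6.1, a lncRNA opposite HERC1, rose by 1.22.

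**Figure D1:**
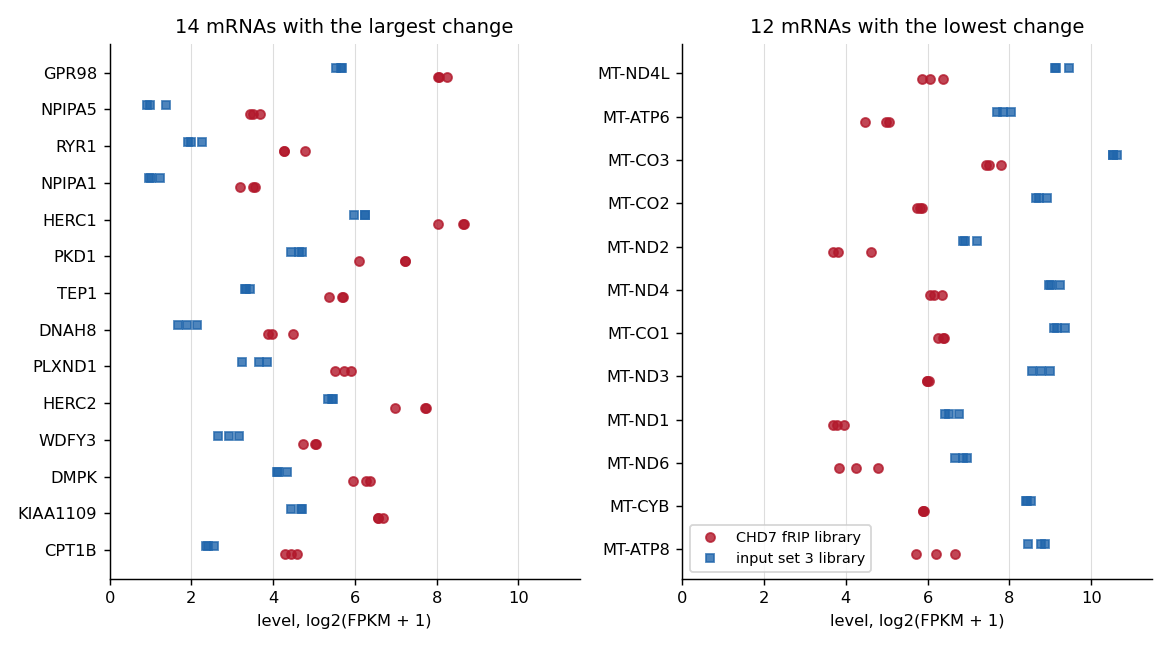
Levels of the mRNAs with the largest and the lowest changes, as log2(FPKM + 1) on the x axis, with 1 point for each CHD7 fRIP library (circles) and each library of input set 3 (squares). In every gene drawn the 3 CHD7 libraries lie on 1 side of the 3 input libraries, above them in the left panel and below them in the right. The genes were chosen among those with such a separation.

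Among the lists of genes, giant ubiquitin ligases and proteases stood highest. These enzymes attach or remove ubiquitin and are encoded by some of the longest coding sequences in the genome. Of 18 members 9 were enriched and none depleted, against 1.49% and 1.19% of all genes, with a median of 1.06, and all 18 were above input without overlap. After centring 9 were called with a median of 0.94, and against all 9 inputs 8. The members were chosen with earlier results of these data known. For comparison by size, of all 380 genes with over 4800 coding bases 68 were enriched and 0 depleted. Beside HERC1 and HERC2, BIRC6, an inhibitor of apoptosis, measured 195.6, 196.7 and 191.1 FPKM against 60.0, 65.6 and 67.3 FPKM and rose by 1.58 (SE 0.14, adjusted p = 1.16e-12). UBR4, an N-degron ligase, measured 342.4, 382.7 and 287.0 FPKM against 125.9, 123.9 and 125.8 FPKM and rose by 1.41. MYCBP2, USP34, RNF213 and USP24 rose by 1.55, 1.45, 1.24 and 1.15. The 9 members that were not called, down to USP9X at 0.48, were above input but under the fold threshold.

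Genes of DNA damage signalling and repair had 6 enriched and 0 depleted of 27, with a median of 0.46. These and the following counts stand against 1.49% of all genes enriched and 1.19% depleted, and a median of 0.04. After centring 3 were called. ATR, the kinase that answers replication stress, measured 51.7, 58.1 and 48.1 FPKM against 18.8, 17.5 and 15.4 FPKM and rose by 1.56 (SE 0.21, adjusted p = 1.70e-07). REV3L, the catalytic subunit of translesion polymerase zeta, measured 47.1, 44.5 and 44.6 FPKM against 16.3, 14.2 and 18.2 FPKM and rose by 1.43. FANCD2 of the Fanconi anemia pathway measured 167.7, 161.4 and 138.3 FPKM against 60.0, 62.9 and 76.6 FPKM and rose by 1.22, with 19.4% of its words shared with a pseudogene. POLQ, FANCA and ATM rose by 1.12, 1.06 and 1.04. Other large repair genes were not called, with BRCA2 at 0.74, PRKDC at 0.51 and BRCA1 at 0.23, and NBN lay at -0.25.

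Motor proteins and giant cytoskeletal linkers had 4 enriched of 28 and a median of 0.43, and 1 enriched after centring. MACF1, which crosslinks actin and microtubules, measured 388.5, 471.8 and 367.3 FPKM against 142.3, 131.3 and 118.3 FPKM and rose by 1.64. DYNC1H1, the dynein heavy chain, DST and KIF13A rose by 1.10, 1.09 and 1.00. Centrosome genes had 3 enriched of 31 and a median of 0.35, with the scaffold proteins CEP192 at 1.74, PCNT at 1.46 and CEP250 at 1.03. After centring 2 were called, and CEP250 was below the fold threshold both there, at 0.90, and against all 9 inputs, at 0.88. CEP192 measured 136.5, 129.1 and 91.0 FPKM against 36.3, 33.6 and 33.2 FPKM. In the kinetochore and spindle list 1 of 33 was enriched, the spindle kinesin KIF15 at 1.24, and the median was 0.29.

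Among chromatin genes, WHSC1, an H3K36 methyltransferase, measured 209.5, 237.3 and 201.1 FPKM against 78.5, 80.8 and 82.1 FPKM and rose by 1.41 (SE 0.08, adjusted p = 1.08e-20), and KMT2C, an enhancer H3K4 methyltransferase, rose by 1.02. They were the 2 called of 24 histone lysine methyltransferases, whose median was 0.39, and KMT2C was below the fold threshold after centring. INO80, the ATPase of the complex of that name, measured 55.1, 49.1 and 47.5 FPKM against 15.53, 14.2 and 14.3 FPKM and rose by 1.72, the 1 gene called among 20 ISWI, INO80 and related remodelers. No member of the 18 SWI/SNF genes or of the 10 core subunits of the COMPASS methyltransferases was called by limma, with medians of 0.17 and -0.01 and an unadjusted p under 0.05 for 8 and 4 genes. Of these, 5 and 3 had an adjusted p under 0.05 and were below the fold threshold, 4 and 2 of them higher, among these BRD9 and SMARCA2 at 0.999 and 0.96 and PAXIP1 and KDM6A at 0.90 and 0.84, and 1 lower in each list, PHF10 at -0.38 and DPY30 at -0.62. The splicing kinases CLK1 and CLK3, which phosphorylate SR proteins, rose by 1.25 and 1.04 among 32 SR proteins and splicing regulators, with a median of 0.36, and against all 9 inputs neither was called. CLK1 measured 72.7, 68.1 and 66.8 FPKM against 25.0, 27.5 and 33.3 FPKM. Of 470 zinc finger genes named ZNF, 2 were enriched (ZNF236 at 1.52 and ZNF321P at 1.45, the latter not called against all 9 inputs), a smaller share than the 1.49% of all genes, and the median was 0.07. Of 23 genes tied to CHARGE syndrome or neural crest, 17 were below 1 FPKM in all 6 libraries, 9 entered the test and 0 were called by limma (3 had an unadjusted and 1 an adjusted p under 0.05), with a median of 0.19 for the 9.

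**Figure D2:**
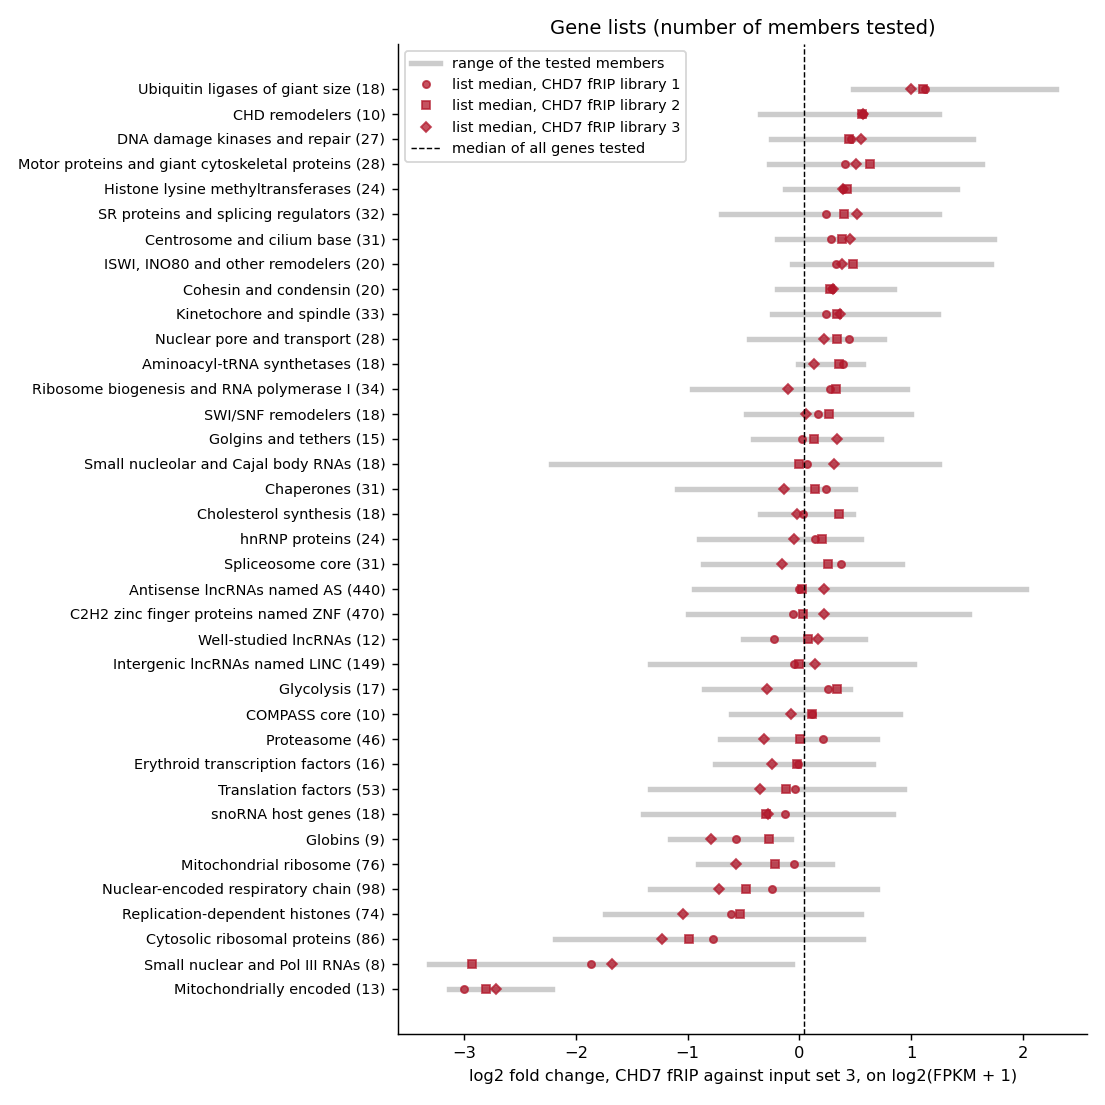
Log2 fold change of each gene list, with the number of members tested in parentheses. Grey bars span the tested members, the 3 markers are the list medians in CHD7 libraries 1 to 3 against the input mean, and the dashed line is the median of all genes. Giant ubiquitin ligases lie highest, and mitochondrially encoded and small nuclear RNAs lowest.

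RNAs made in mitochondria were the most depleted coding RNAs. All 13 mitochondrially encoded mRNAs fell, with a median of -2.87, and all 13 were also called after centring and against all 9 inputs. MT-CO3, a subunit of cytochrome oxidase, measured 172.3, 180.6 and 219.3 FPKM against 1482, 1582 and 1472 FPKM in input and was 7.93-fold lower (log2 change -2.99, SE 0.24, adjusted p = 1.31e-14). MT-ND4L and MT-ATP6 changed by -3.14 and -3.03, and the smallest decrease of the list was -2.21 for MT-ND5. For 10 of these RNAs between 16.1% and 66.7% of the 31-base words also occur in other annotated genes, mostly nuclear pseudogenes of mitochondrial origin.

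Cytosolic ribosomal protein mRNAs formed the largest depleted list, with 41 of 86 depleted and 0 enriched, against 1.19% of all genes depleted. The median was -0.98, and 81 members lay below input without overlap. RPLP1, of the ribosomal stalk, measured 187.7, 196.4 and 140.7 FPKM against 751.5, 790.4 and 837.4 FPKM and was 4.56-fold lower (log2 change -2.19, SE 0.18, adjusted p = 5.57e-14). RPS28 measured 32.3, 44.8 and 33.3 FPKM against 136.2, 138.1 and 164.4 FPKM and changed by -1.97. RPL28 measured 70.7, 73.2 and 42.2 FPKM against 212.5, 239.6 and 252.6 FPKM and changed by -1.94. For most of the 41, library 3 gave the lowest fRIP value. Ribosomal protein genes have many processed pseudogenes, and 46.7% of the 31-base words of RPS28 and 18.3% of those of RPLP1 occur elsewhere.

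Lists of other translation and mitochondrial genes held fewer calls. Of 53 translation factors 3 were depleted: TPT1 (also known as TCTP) at 261.9, 217.0 and 208.6 FPKM against 587.0, 532.7 and 612.0 FPKM, EIF1, which selects start codons, and PABPC1, the cytoplasmic poly(A) binding protein. Their changes were -1.33, -1.17 and -1.07, and EIF1, at -0.99 against all 9 inputs, was not called there. Without the fold threshold 16 of the 53 were lower and 5 higher at an adjusted p under 0.05. Of 98 nuclear genes of the respiratory chain 13 were depleted and the median was -0.44. After centring 20 were called, but against all 9 inputs only 1. COX7C measured 236.5, 220.8 and 166.9 FPKM against 532.4, 497.1 and 534.7 FPKM and changed by -1.34, and COX8A and UQCR10 changed by -1.25 and -1.21. None of 76 mitochondrial ribosome genes was called by limma (25 had an unadjusted and 13 an adjusted p under 0.05, all 13 lower), with a median of -0.30. Of 9 globin genes HBQ1 was called at -1.07, and of 31 chaperones HSPB1 at -1.10, and neither was called against all 9 inputs.

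Replication-dependent histone genes, whose mRNAs end in a stem-loop in place of a poly(A) tail, had 16 of 74 depleted (24 after centring) and a median of -0.75. Without the 12 pseudogenes of the list it was 16 of 62 and a median of -0.82. HIST1H4C measured 77.8, 75.4 and 118.5 FPKM against 233.6, 240.1 and 272.1 FPKM and changed by -1.47. HIST1H4D and HIST1H4J changed by -1.54 and -1.74, the latter with 92.5% of its words shared with other H4 genes. The list rests on the choice of input: against all 9 input libraries 1 member was called and the median was -0.14, and against input set 1 alone HIST1H4C and HIST1H4J changed by 0.31 and 0.89.

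Among noncoding RNAs the RNase P RNA RPPH1, at chr14:20811207-20811844, was 9.94-fold lower, at 366.8, 272.1 and 346.7 FPKM against 3169, 2928 and 3689 FPKM (log2 change -3.31, SE 0.22, adjusted p = 2.79e-17). RN7SL1, the RNA of the signal recognition particle, measured 32.3, 25.2 and 33.9 FPKM against 269.7, 174.1 and 231.1 FPKM and changed by -2.83. RMRP, the related RNase MRP RNA, measured 1682, 1196 and 1754 FPKM against 2177, 1981 and 2044 FPKM and was not called. Of the 8 small nuclear and Pol III RNAs tested 2 were depleted, and 4 against all 9 inputs. Of 18 snoRNA host genes SNHG5, SNHG6 and DANCR were depleted, with changes of -1.40, -1.28 and -1.25, and against all 9 inputs DANCR was not called. SNHG5 measured 355.4, 319.0 and 283.9 FPKM against 838.9, 793.3 and 896.9 FPKM. UCA1, CTD-2510F5.4 and RP11-462G2.1 changed by -1.41, -1.46 and -1.33. None of 12 well-studied lncRNAs was called by limma (3 had an unadjusted and 3 an adjusted p under 0.05), with a median of 0.04. Their mean input levels ran from 0.455 FPKM for MIAT to 3253 FPKM for MALAT1.

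Several enriched lncRNAs overlapped or resembled enriched coding genes. RP11-1186N24.5 measured 40.4, 42.8 and 26.9 FPKM against 5.78, 6.48 and 4.36 FPKM and rose by 2.51. It shares 84.7% of its 31-base words with other genes, PKD1 among them, and overlaps the pseudogene PKD1P6, which rose by 2.04, and NPIPP1, which rose by 2.82. HERC2P3 and HERC2P9, pseudogenes of HERC2, rose by 1.84 and 1.81. Of 440 antisense lncRNAs 7, or 1.59%, were enriched (3 against all 9 inputs), close to the 1.49% of all genes, and of 149 intergenic lncRNAs named LINC 1 (LINC00969 at 1.03, not called against all 9 inputs). A2ML1-AS1 and MYCBP2-AS1 rose by 2.03 and 1.47, and each lies opposite a gene that rose, RIMKLB by 1.16 and MYCBP2 by 1.55. The study's methods name a library kit that does not mark strand, so reads of a gene and its antisense partner cannot be told apart. FAM182B and RP4-791M13.3 rose by 1.90 and 1.89, with 20.2% and 77.0% of words shared.

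The called mRNAs differed in structure. Enriched mRNAs had a median of 15.02 exons and 3236 bases, depleted mRNAs 3.86 exons and 680 bases, and all 13490 mRNA genes with exon data 6.63 exons and 2112 bases, weighted over isoforms by input level. Depleted mRNAs were also abundant, with a median of 111 FPKM in input against 12.4 for enriched and 12.3 for all. Across mRNA genes the change correlated with exon number at a Spearman rho of 0.319 ± 0.071 and with transcript length at 0.197 ± 0.081 (mean ± SD over 3 CHD7 libraries). These are correlations across genes, which share libraries and are no independent replicates. With length held constant exon number kept 0.222 ± 0.094, and with exon number held constant length kept 0.067 ± 0.113. Against all 9 inputs these values were 0.238 and 0.011. The median change was -0.02 for 363 single-exon genes, -0.07 for 1979 genes of 2 to 3 exons, -0.04 for 5352 genes of 4 to 7 exons, 0.12 for 4435 genes of 8 to 15, 0.33 for 1187 genes of 16 to 30, and 0.53 for 174 genes of over 30 exons. In the last group 37 genes, or 21.3%, were enriched and 0 depleted, against 1.49% and 1.19% of all genes. Among transcripts of 2000 to 4000 bases the median still went from -0.03 in single-exon genes to 0.33 at 16 to 30 exons. Among genes of 8 to 15 exons it went up from -0.04 for 500 to 1000 bases to 0.11 for 1000 to 2000 and 0.15 for 2000 to 4000 bases. It then went down, to 0.06 for 4000 to 8000 bases and 0.03 for over 8000 bases.

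Of the transcript regions, the coding sequence carried the relation. The regions of each gene, here and for the motifs below, were those of its isoform with the highest input level. In 11710 genes with annotated regions the rho was 0.403 ± 0.031 with coding length, 0.043 with 5′ UTR length and 0.009 ± 0.12 with 3′ UTR length. Genes with over 4800 coding bases had a mean of library medians of 0.54 ± 0.05 and 68 enriched and 0 depleted of 380, whereas genes with 300 to 600 coding bases had -0.21 ± 0.05 and 5 enriched and 81 depleted of 1892. With exon number held constant coding length kept 0.209, and with coding length held constant exon number kept 0.132. GC content gave 0.038 ± 0.231, which the spread between libraries exceeded. The relation to input level was -0.150 ± 0.134 over all mRNAs and -0.0095 against all 9 inputs, but the most abundant genes stood apart: of 93 genes over 500 FPKM in input 41 were depleted, with a median of -0.87.

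**Figure D3:**
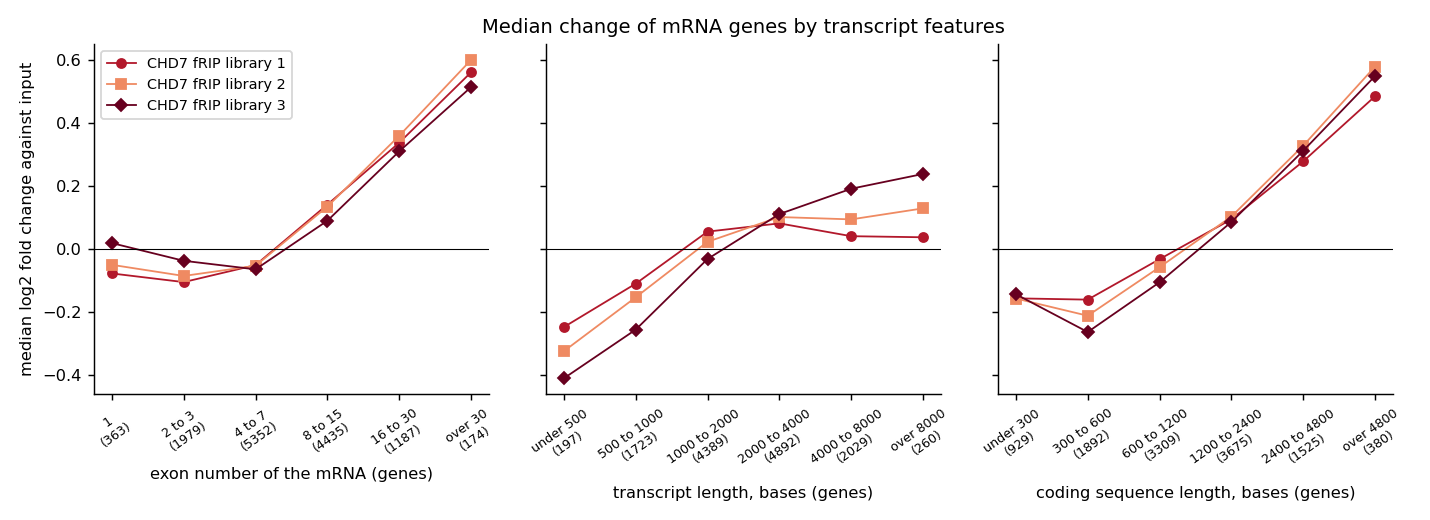
Median log2 fold change of mRNA genes against input in bins of exon number, transcript length and coding sequence length (bases), with the number of genes in parentheses and 1 line per CHD7 fRIP library. The 3 libraries follow each other closely across exon number and coding length, while across transcript length library 3 runs from the lowest value in short transcripts to the highest in long ones.

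Motifs were counted on the transcript strand, overlaps included. GAAGAA was found in 63.2% of 11710 coding sequences. Genes without it changed by -0.06 and the 1179 genes with 6 or more by 0.30, a difference of 0.37 ± 0.09 over libraries. The count grows with coding length, and the number per 1000 coding bases had a rho of only 0.062. Among genes of 8 to 15 exons the mean of library medians was 0.08 ± 0.08 without GAAGAA and 0.24 ± 0.05 with 6 or more, and the median transcript length of these groups also went up, from 2072 to 3019 bases. Enriched genes held a median of 0.984 per 1000 coding bases and all genes 0.871. Depleted genes had a median of only 351 coding bases, too short for a density to compare. Of 28 named enriched mRNAs 18 lay above the median density of all genes and 10 did not. The isoforms used for KMT2C and CLK1 held only 466 and 408 coding bases, so their densities are uncertain. The coding sequences of GPR98, HERC1, INO80, MACF1, CHD8 and BIRC6, whose windows are printed above, held 29, 21, 13, 25, 17 and 10 copies, and those of PLXND1 and NPIPA5 held 1 and 0. By density BIRC6, at 0.686 per 1000 coding bases, lay below the median of all genes, and the others with printed windows lay above it. The relation was not particular to GAAGAA. Coding sequences with 6 or more GGGGG were 0.29 ± 0.15 higher than those without it, and the 35 coding sequences with at least 2 copies of UUUUAAAA were 0.52 ± 0.13 higher. Over whole transcripts UUUUAAAA gave -0.06 ± 0.21, which the spread between libraries exceeded.

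TOP-like starts were found at 4.07% of 35116 RefSeq promoters and at 44 of 67 matched ribosomal protein genes. Ribosomal protein genes with such a start changed by -1.07 ± 0.22 with 24 of 44 depleted, and those without by -0.87 ± 0.22 with 7 of 23 depleted, a difference of -0.20 ± 0.002 within libraries. The groups also differed in input level, with medians of 766 and 382 FPKM, and the part of level in the difference was not tested. Among other mRNAs above 100 FPKM in input, 70 genes with a TOP-like start changed by -0.37 ± 0.23 with 8 depleted, and 591 without by -0.15 ± 0.20 with 25 depleted, a difference of -0.22 ± 0.04 within libraries at median input levels of 176 and 147 FPKM. A match to the letters is a description of the annotated start, not a measured site. A gene whose pyrimidine run begins just after the annotated start, such as RPS28, fails the rule.

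At the level of isoforms 104506 were tested, of which 1377, or 1.32%, were enriched and 664, or 0.635%, depleted. After centring the balance turned, to 854 enriched and 1066 depleted isoforms, and a fit of only the 6 libraries gave 290 and 207. The authors' tool divides the fragments of a gene among its isoforms, so isoform values are less certain than gene values. Of the 378 enriched gene symbols 314 had an enriched isoform, as did 645 symbols not called at the gene level, and 60 symbols had isoforms called in both directions. Retained intron isoforms had 309 enriched and 29 depleted of 19390 and a median of 0.24, and nonsense-mediated decay isoforms 184 and 37 of 8351, whereas protein coding isoforms had 451 and 412 of 42461. Within 4693 genes that had both, retained intron isoforms exceeded protein coding ones by 0.37 ± 0.32, at 0.09, 0.32 and 0.71 in libraries 1 to 3, so that the size rests largely on library 3. For nonsense-mediated decay isoforms the difference was 0.18 ± 0.02 in 2550 genes.

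The full-length HERC1 isoform (ENST00000443617, 78 exons) measured 108.0, 118.7 and 90.8 FPKM against 27.3, 26.6 and 24.4 FPKM and rose by 1.97. Of its 15 isoforms 6 were enriched and 1 depleted, the retained intron isoform ENST00000559886 at -1.40. ENST00000561348, a short retained intron isoform of HERC1, measured 67.3, 49.5 and 24.0 FPKM in the fRIP and at most 0.179 FPKM in input, too low for a fold. The full-length GPR98 isoform (ENST00000405460, 90 exons) measured 59.1, 74.1 and 67.8 FPKM against 21.6, 22.9 and 22.0 FPKM and rose by 1.55. ENST00000425867, a GPR98 isoform of 38 exons, measured 88.2, 90.1 and 63.0 FPKM against 4.11, 4.84 and 5.27 FPKM and rose by 3.81. HERC2 had 4 enriched isoforms of 12 and PKD1 11 of 25. None of 10 CHD7 isoforms was called, and the full-length one (ENST00000423902, 38 exons) measured 22.2, 25.4 and 18.5 FPKM against 11.8, 11.4 and 10.1 FPKM, a change of 0.93.

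To see where CHD7 differed, its changes were compared with those of 3 other fRIPs of 3 libraries each: CHD4 against input set 1, CHD1 against input set 2, and PHF8, a histone demethylase. The authors' pooled input lay closest to set 1 for CHD4 (median absolute log2 difference 0.0970) and to set 2 for CHD1 (0.104). PHF8 was set against input set 3 as well, a choice that was not checked, so its comparison with CHD7 is the direct difference of both fRIPs and does not depend on the input. Against CHD4, 19.8% of the 25442 genes were higher in CHD7 and 9.43% lower, or 5035 and 2398. After centring the direction of this balance turned, to 1920 higher and 6256 lower. Against CHD1, 0.68% were higher and 0.318% lower, or 173 and 81, and after centring 112 and 115. Against PHF8, 1.19% were higher and 2.25% lower, or 302 and 572, and after centring 615 and 260. For CHD4 and CHD1 the input sets differed too. The direct difference of the fRIPs, which leaves input out, gave 13.7% of genes higher and 6.59% lower than in CHD4, or 3473 and 1677, and 1.34% higher and 0.912% lower than in CHD1, or 342 and 232. Each pull-down was done with its own antibody and at its own depth, which cannot be told apart from the protein.

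The median change of giant ubiquitin ligases was 1.06 for CHD7, -0.85 for CHD4, 0.18 for CHD1 and 0.35 for PHF8. Of 18 members 17 were higher in CHD7 than in CHD4 (11 after centring), 8 higher than in CHD1 (8) and 8 higher than in PHF8 (8), and none was lower. Most members thus did not pass the test against CHD1 or PHF8. The direct difference gave 16 higher than in CHD4 and 8 higher than in CHD1. GPR98, RYR1 and TEP1 were 2.24 (SE 0.26, adjusted p = 3.08e-08), 2.25 and 2.24 higher than in CHD1. In CHD1 fRIP GPR98 measured 61.3, 68.4 and 44.7 FPKM, near its own input mean of 49.0 FPKM. Genes of DNA damage and repair were higher than in CHD4 for 18 of 27 (7 after centring), with medians of 0.46 and -0.80, and higher than in CHD1 and in PHF8 for 3 each (1 and 8 after centring). In the direct difference these were 17 for CHD4 and 4 for CHD1.

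Ribosomal protein mRNAs went the other way in CHD4, where their median was 0.71, and 80 of 86 were lower in CHD7 (84 after centring, 68 in the direct difference) and 1 higher, against 9.43% and 19.8% of all genes. In CHD1 and PHF8 the medians were -0.56 and -1.23, with 1 member lower than in CHD1 (2 after centring) and 2 higher and 1 lower than in PHF8 (3 and 0). Host genes of snoRNAs had a median of 1.58 in CHD4 and -0.27 in CHD7, with 11 of 18 lower in CHD7 and 1 higher (13 and 0 after centring, 11 and 1 in the direct difference), against the same shares of all genes. Mitochondrially encoded mRNAs were low in all 4, with medians of -2.87, -2.16, -1.86 and -3.34 for CHD7, CHD4, CHD1 and PHF8. Histone genes had a median of 0.23 in CHD1, and 8 of 74 were lower in CHD7, against 0.318% of all genes (0.21 and 8 of 62 without pseudogenes). The CHD7 and CHD1 changes of this list rest on different input sets, and the change in CHD7 itself depended on the input used. In the direct difference without input 11 of 74 were lower than in CHD1, against 0.912% of all genes. The comparison with CHD4 moved with the input, from 7 higher and 6 lower in CHD7 to 41 and 0 in the direct difference. CHD1 mRNA measured 307.7, 235.8 and 416.1 FPKM in the fRIP of CHD1 itself against an input mean of 60.6 FPKM, a change of 2.36, and the change in CHD7 fRIP was smaller by -1.79 (SE 0.25, adjusted p = 2.57e-06).

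**Figure D4:**
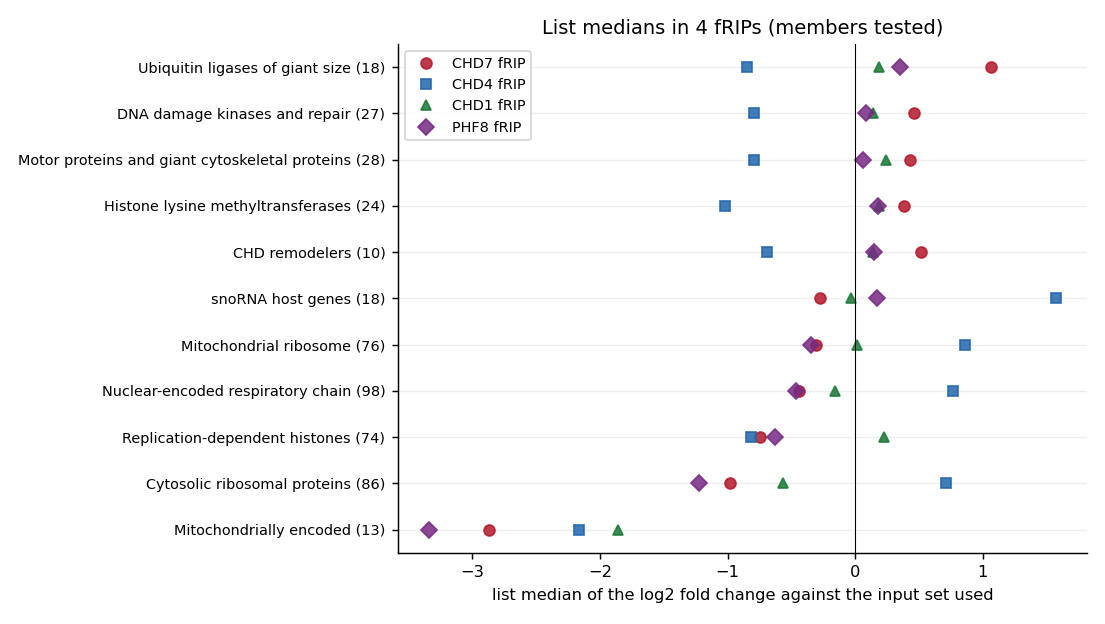
Median log2 fold change for gene lists in the fRIPs of CHD7 and PHF8 against input set 3, CHD4 against set 1 and CHD1 against set 2, with the number of members tested in parentheses. CHD7 has the highest median for giant ubiquitin ligases, and CHD4 is the only one of the 4 with positive medians for ribosomal protein and respiratory chain genes.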

How the data were processed

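RNA from formaldehyde-fixed K562 cells was measured by RNA sequencing after fRIP or as input. The authors aligned reads to hg19 (TopHat), estimated abundance over GENCODE v18 (Cuffdiff 2) and deposited FPKM of genes and of isoforms for each library. The library kit named in the paper does not mark strand. A further table of the authors' comparisons also holds group FPKM, fold changes, p-values and q-values. Only its pooled input FPKM was used, to find the nearest input set.

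FPKM was taken as log2(FPKM + 1). A gene entered when it reached 1 FPKM in 2 or more libraries. Genes were fitted over all 79 libraries in 1 model (limma 3.58.1 in R 4.3.3, intensity trend, a mean per protein and per input set, no replicate block), which shares its estimate of the spread. P-values were Benjamini-Hochberg adjusted over all genes tested. The series' labels gave the groups. The paper states that the triplicates came from separate lysates. P-values rest on the spread between libraries of a group, estimated over all 79 libraries and not from the 6 alone. A fit of only the 6 libraries called 270 genes enriched and 232 depleted. Depth was read from FPKM steps of single-isoform genes of 1500 to 8000 bases, where 91.4% to 94.3% of the values lay within 0.15 of whole fragments. Classes, lengths, coding sequences and coordinates came from GENCODE v44 on GRCh37, start windows from RefSeq on GRCh38.p14. Analyses used Python 3.11.15, numpy 2.4.6, pandas 2.3.3, scipy 1.17.1 and matplotlib 3.10.9.

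Named genes were the CHD genes, the mRNAs and lncRNAs of largest change, up to 3 called genes per list and the largest differences from the other fRIPs. The mRNAs and lncRNAs of largest change had to be called, with a mean of at least 5 FPKM and no overlap between CHD7 and input libraries. The differences from the other fRIPs also had to be without overlap. UBR4, MYCBP2, USP34, RNF213, USP24, POLQ, FANCA, ATM, KIF13A, MT-ND5, RMRP, uncalled list members, pseudogenes and overlapping genes were named after their values were seen. Some genes that met the rule are not reported here. The members and the 40 lists were chosen with earlier results of these data known. The counts by list in the direct difference without input were added after seeing the data. On simulated data for CHD7 against input over 25442 genes, 95% of 200 genes changed by 1.5 on the log2 scale were called, with 2 others.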

Additional observations from a re-analysis of the deposited data

Results flagged for a closer look

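The changes that differed between CHD7 and another fRIP, by the test of the difference itself, were counted at 5035 genes higher and 2398 lower in CHD7 than in CHD4, 173 higher and 81 lower than in CHD1, and 302 higher and 572 lower than in PHF8.

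Against CHD4 the largest positive differences were those of AL590452.1 (4.13), OR51I2 (4.02), OR8D1 (4.01) and ANKRD30BL (3.99). OR51I2 measured 1.46, 0.974 and 1.39 FPKM in CHD4 fRIP against an input mean of 27.8 FPKM, and its change of 0.37 in CHD7 fRIP was not called. The lowest differences were those of BOLA3 (-3.16), RAB13 (-2.98), KRT10 (-2.91) and RPS29 (-2.88). RAB13 measured 87.1, 96.4 and 92.8 FPKM in CHD4 fRIP and 12.8, 13.5 and 11.6 FPKM in CHD7 fRIP.

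Against CHD1, PLXND1 differed by 2.40, RYR1 by 2.25, GPR98 by 2.24 and TEP1 by 2.24, and the 4 genes were not called in CHD1 fRIP. The lowest were HIST1H4J (-2.005), CHD1 (-1.79), RP11-139H15.1 (-1.53) and MT-CO1 (-1.40).

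Against PHF8, RYR1 differed by 2.45, MSH5-SAPCD1 by 2.21, TEP1 by 2.15 and DNAH8 by 2.11. The lowest were GP1BB (-2.18), ST8SIA1 (-2.005), C21ORF59 (-1.95) and WDR74 (-1.81). GP1BB measured 13.4 and 10.8 FPKM in CHD7 libraries 1 and 2 and near 0 in library 3, and all of its 31-base words occur in other genes. C21ORF59 and MSH5-SAPCD1 share 98.2% and 95.7% of their words, so these 3 differences are uncertain.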

How the results depend on the processing

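Median centring gave 223 enriched and 486 depleted genes, 854 enriched and 1066 depleted isoforms, 1920 higher and 6256 lower than CHD4, 112 higher than CHD1, and 615 higher and 260 lower than PHF8. Input set 1 alone gave 246 enriched genes. A pseudocount of 0.1 gave 582, and 599 higher than PHF8. A fit of only the 6 libraries gave 290 enriched and 207 depleted isoforms. The direct contrast without input gave 342 higher and 232 lower than CHD1. At 5 FPKM or more in input, rho was 0.449 for exon number and 0.317 with length held constant, and lncRNAs differed from mRNAs by -0.093. With all 9 inputs the rho with level was -0.0095 and 86 list members were called, against 133. The causes were not tested.

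Replicate numbers did not pair the libraries: deviations of the same number correlated at 0.05, 0.01 and 0.04. With a replicate block in the 6 libraries, limma called 0 genes enriched and 1 depleted (403 and 326 at an unadjusted p under 0.05), 0 isoforms either way, and 0 of 75 named genes.

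Of named changes, CHD6 turned to -0.013, HBQ1 to 0.012, HIST1H4C to 0.31 and HIST1H4J to 0.89 with input set 1. CHD4 turned to -0.046 and CHD3 to 0.41 with input set 2, and CHD3 ranged from -0.84 to 0.47 without 1 library at a time. Without 1 library at a time, enriched genes ranged from 345 to 474 and depleted genes from 243 to 379, and of the called named genes 67 to 71 kept their call.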
